A study of Mus musculus with 36 samples.

Results

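The protein-folding machinery of the endoplasmic reticulum was followed in mouse kidney through 10 genes: Hspa5, Hyou1, Dnajb11, Hsp90b1, Pdia4, Pdia6, Creld2, Sdf2l1, Manf and Xbp1. They were chosen by gene symbol, with earlier results of these data known. Their counts beside those of all probe sets are thus descriptions and no independent test. All 10 were measured, by 18 of the 45141 probe sets on the Affymetrix HT MG-430 PM array, which names 17097 genes by a single symbol. Each gene is given by its probe set of highest mean signal, and the other 8 probe sets are given where they fell on another side of a threshold.

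Secretory and membrane proteins fold in the endoplasmic reticulum. The Hsp70 chaperone Hspa5 (BiP) binds unfolded chains there, helped by the nucleotide exchange factor Hyou1, the Hsp40 co-chaperone Dnajb11 and the Hsp90 chaperone Hsp90b1, while the protein disulfide isomerases Pdia4 and Pdia6 and the related factor Creld2 act on disulfide bonds. When unfolded proteins build up, the sensors Ern1 (IRE1), Atf6 and Eif2ak3 (PERK) start the unfolded protein response, in which IRE1 splices the Xbp1 transcript and the resulting factor, with ATF6, induces chaperone genes through ER stress response elements in their promoters. Tubule cells of the kidney make large amounts of membrane transporters, which pass through this compartment.

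The mice were male C57BL/6 animals, 10 to 12 weeks old, and each of the 36 arrays holds total kidney RNA of 1 mouse. In the fasting cohort 4 mice were fasted for 3 days and 5 mice had free access to SDS chow. In the other cohort, hybridized at another date, 5 mice were on 30% dietary restriction (30%DR) for 2 weeks and 3 had free access to SDS chow. The labels name the same chow for all 8 SDS mice, which were assigned to the cohorts by the prefix of their animal ID. The study excluded outlying arrays among the fasted, fat-free and SDS mice of the 30%DR comparison. It lists 4 SDS arrays for the 30%DR comparison, and 3 are here. In the cohort of the 30%DR mice 5 mice received a protein-free, 5 a carbohydrate-free (CHO-free) and 4 a fat-free diet for 3 days, and 5 received the Control diet, all with free access. The Control diet is matched to the diets lacking 1 macronutrient and has casein as its protein, whereas SDS is a standard chow. The 30%DR mice received the restricted amount of that chow as 1 daily meal in the afternoon, so that restriction and meal time cannot be told apart.

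The values are log2 signals after Robust Multichip Average (RMA), and the number of arrays limits their precision. With limma, a call needed a false discovery rate (FDR) under 5%, taken over the whole array, together with a change of 1.5-fold or more. By that rule 2398 probe sets were called after fasting, 415 after 30%DR, 333 on the protein-free and 1627 on the CHO-free diet. On the fat-free diet 0 were called, and 2089 (4.63%) had an unadjusted p under 0.05. Markers of the kidney were bright in all groups (Kap, a gene of proximal tubule, averaged 13.66 and Umod, of the thick ascending limb, 12.94 over the 36 arrays). Whole kidney was measured, and fewer cells of a type and less RNA per cell cannot be told apart.

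The promoters are shown first because the unfolded protein response induces chaperone genes through a known element. They were chosen with the results below already known, and a link between the element and a change in any diet was not tested. RefSeq promoters (build GRCm38.p6, 250 bases before to 50 bases after the start) were at hand for 8 of the 10 genes. The ER stress response element (ERSE) was searched on both strands as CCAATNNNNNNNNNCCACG. It occurs in 39 of 32851 promoters (0.119%), and in those of Hspa5, Hsp90b1, Pdia6 and Creld2. Their 250 bases before the start are printed in the direction of the gene, with each ERSE in capitals (on the opposite strand it reads as its reverse complement).
Hspa5 (chr2:34771840-34772089, plus strand): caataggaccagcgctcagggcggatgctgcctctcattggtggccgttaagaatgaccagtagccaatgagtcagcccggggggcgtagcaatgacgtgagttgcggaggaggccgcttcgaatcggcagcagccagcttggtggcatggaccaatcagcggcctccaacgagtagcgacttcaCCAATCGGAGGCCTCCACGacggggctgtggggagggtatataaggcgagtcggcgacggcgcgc
Hsp90b1 (chr10:86705445-86705694, minus strand): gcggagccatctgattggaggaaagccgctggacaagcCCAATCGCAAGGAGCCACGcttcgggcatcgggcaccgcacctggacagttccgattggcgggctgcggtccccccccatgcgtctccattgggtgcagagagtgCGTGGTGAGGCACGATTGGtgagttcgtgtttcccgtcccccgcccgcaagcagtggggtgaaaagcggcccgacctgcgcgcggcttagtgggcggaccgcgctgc
Pdia6 (chr12:17266339-17266588, plus strand): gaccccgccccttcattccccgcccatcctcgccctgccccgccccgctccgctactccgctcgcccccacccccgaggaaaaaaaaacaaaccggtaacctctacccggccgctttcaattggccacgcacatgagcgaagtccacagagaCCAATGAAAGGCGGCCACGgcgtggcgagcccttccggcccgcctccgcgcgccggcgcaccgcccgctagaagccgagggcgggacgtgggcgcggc
Creld2 (chr15:88819396-88819645, plus strand): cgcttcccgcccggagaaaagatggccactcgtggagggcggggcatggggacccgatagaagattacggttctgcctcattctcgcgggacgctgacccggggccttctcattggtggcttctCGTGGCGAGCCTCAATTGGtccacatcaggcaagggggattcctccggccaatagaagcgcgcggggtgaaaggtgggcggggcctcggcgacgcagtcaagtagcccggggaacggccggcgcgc

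In Hspa5 the element lies 65 to 47 bases before the start, in Pdia6 98 to 80 bases and in Creld2, on the opposite strand, 126 to 108 bases. Hsp90b1 holds 2 copies in opposite directions, 212 to 194 and 107 to 89 bases before the start. The shorter ERSE-II, searched as ATTGGNCCACG (its last 5 letters are those of the ERSE), was found in 12 promoters (0.0365%), of which Dnajb11 was the only one of the 8 genes, 8 to 18 bases after the start. The element UPRE, searched as TGACGTGG (its last 5 letters are the reverse complement of the end of the ERSE), was found in 0.676% of promoters and in none of the 8 genes. The windows of Pdia4, Sdf2l1 and Xbp1 held none of the 3 letter strings.

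**Figure D1:**
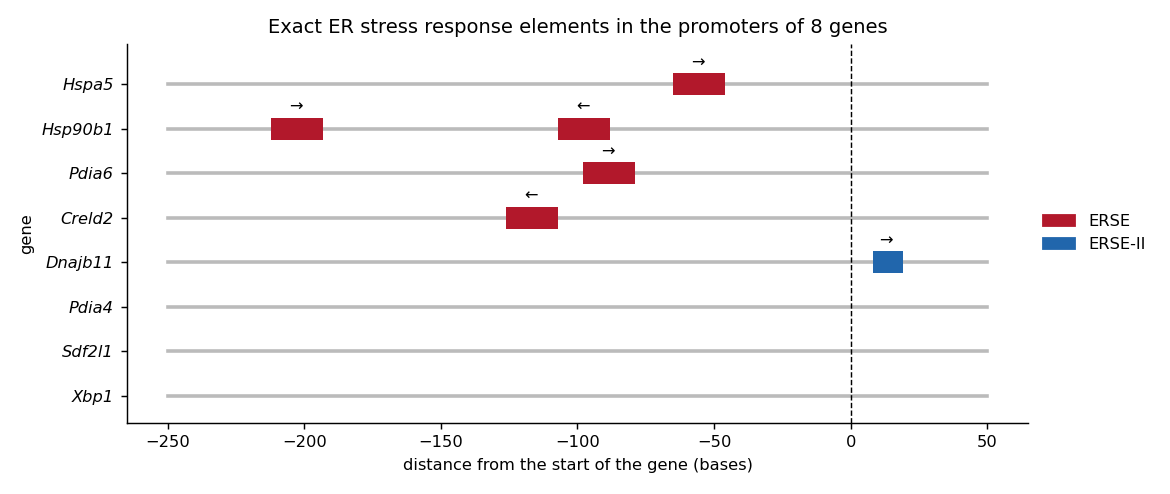
Position of the exact ERSE (red) and ERSE-II (blue) in the promoters of 8 genes, in bases from the start of the gene; grey lines are the windows searched and arrows give the strand. Hspa5, Pdia6 and Creld2 hold 1 ERSE each, Hsp90b1 holds 2, and the single ERSE-II is in Dnajb11.

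To see which diets moved these genes, the mice of each diet were set against their own controls. After 3-day fasting 6 of the 10 genes fell (2.68% of all probe sets did), after 2-week 30%DR the same 6 fell (0.45% of all probe sets), and on the CHO-free diet 3 of these fell (2.25% of all probe sets). The 30%DR calls fell to 0 with adipocyte markers as a covariate, and the CHO-free calls fell to 0 with a measure of RNA quality as a covariate. On the protein-free diet none was called (0.288% of all probe sets were lower and 0.45% higher), and none on the fat-free diet (0.0% of all probe sets). At such low shares a count of 0 is no finding about these genes. The genes that fell after fasting and after 30%DR were Hspa5, Dnajb11, Pdia6, Creld2, Sdf2l1 and Manf, and on the CHO-free diet Hspa5, Creld2 and Manf. No gene of the 10 was called higher in any diet.

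**Figure D2:**
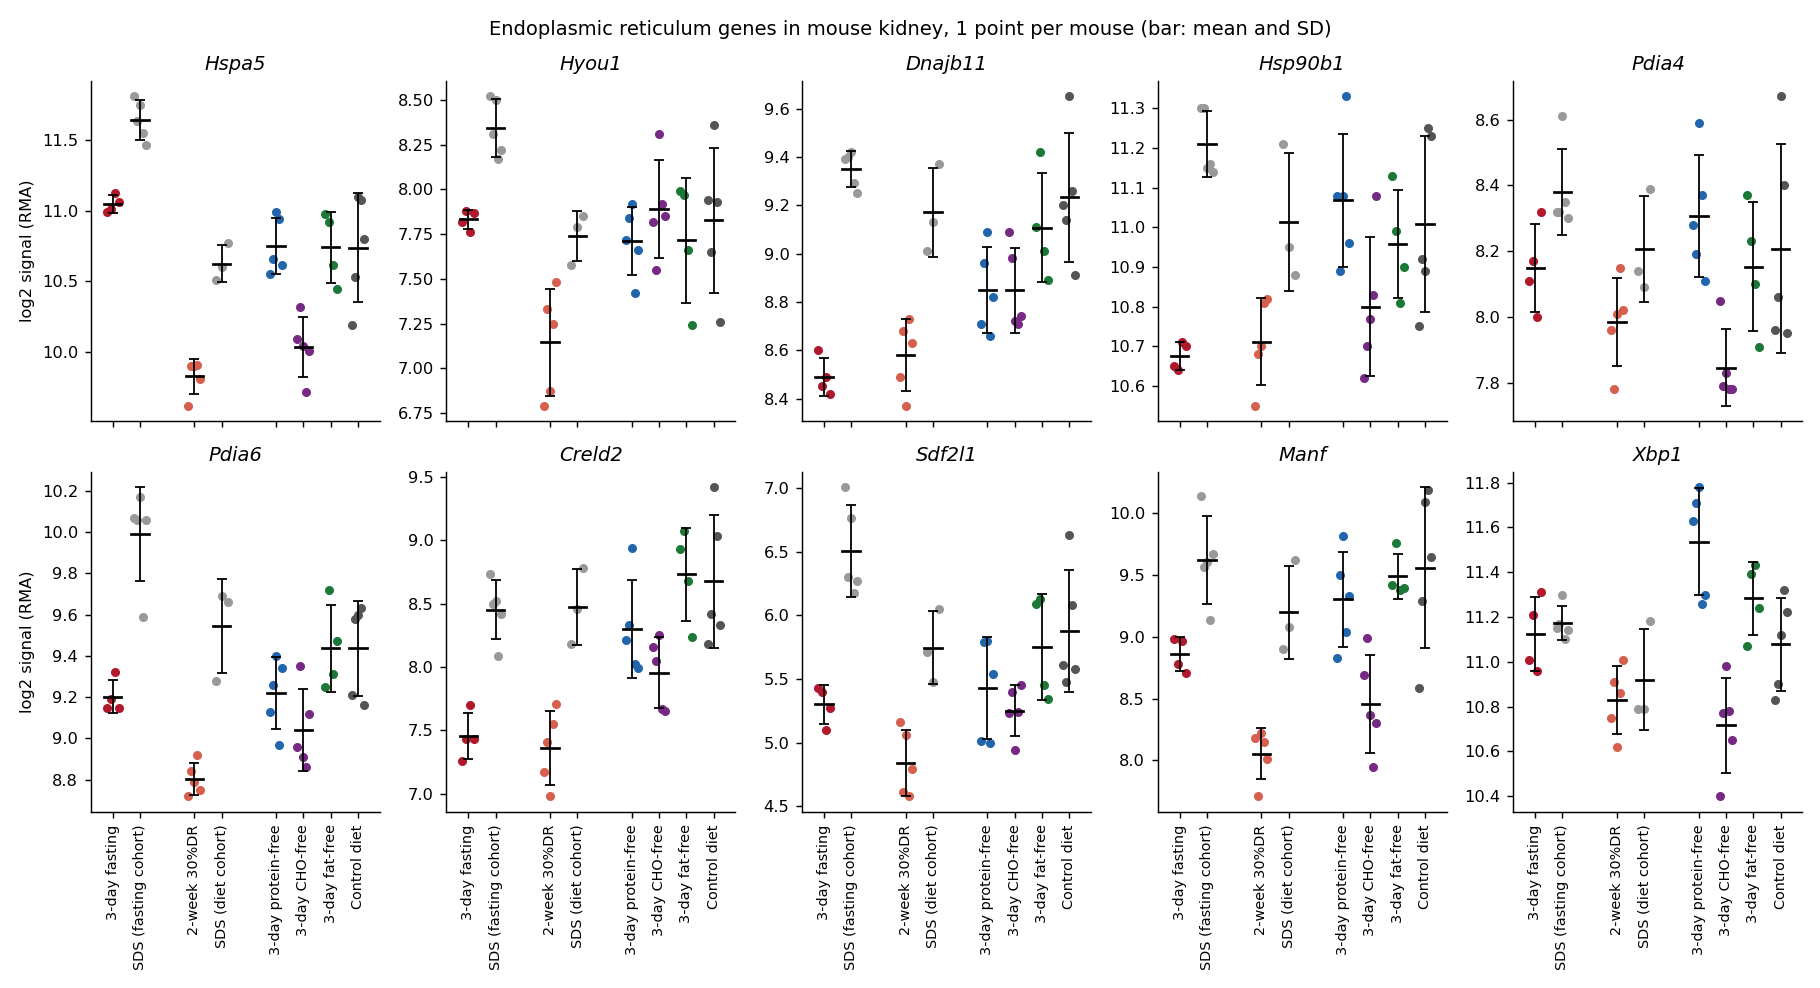
log2 signal (RMA) of the 10 genes in each mouse by diet group, with the mean and SD of each group; the vertical scale differs between genes. All fasted mice lie below all their SDS controls for 8 of the 10 genes, and so do all 30%DR mice for 8 of the 10.

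Fasting was examined first. The chaperone Hspa5 had log2 signals of 10.99, 11.01, 11.13 and 11.06 in fasted mice, against 11.81, 11.64, 11.75, 11.55 and 11.47 in SDS mice. The groups did not overlap, and the log2 fold change was -0.60 ± 0.08 (SE), or 66.1% of the SDS level, with an adjusted p of 0.000234. Its second probe set gave -0.73 ± 0.08.

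Dnajb11, the co-chaperone that hands unfolded chains to Hspa5, had 8.60, 8.45, 8.49 and 8.42 in fasted mice, against 9.39, 9.40, 9.42, 9.29 and 9.25 in SDS mice. The mice of each group lay close together and far from the other group. The log2 fold change was -0.86 ± 0.06, with the lowest adjusted p of the 10 genes (5.25e-06). The disulfide isomerase Pdia6 had 9.15, 9.19, 9.32 and 9.15 in fasted mice, against 10.07, 10.06, 10.17, 9.59 and 10.06 in SDS mice. SDS mouse K349 was lower than the other 4 controls but still above every fasted mouse, and the log2 fold change was -0.79 ± 0.11 (adjusted p = 0.000381). Its second probe set had -0.36 ± 0.10 (adjusted p = 0.0213), short of the fold change minimum.

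The largest change among the 10 was that of Sdf2l1, a component of the Hspa5 chaperone complex. It had 5.43, 5.40, 5.10 and 5.27 in fasted mice, against 7.01, 6.30, 6.77, 6.18 and 6.27 in SDS mice. The level was 43.3% of that in SDS mice (log2 fold change -1.21 ± 0.16, adjusted p = 0.000342). Creld2, which has disulfide isomerase activity and is induced by ER stress, had 7.26, 7.43, 7.70 and 7.43 in fasted mice, against 8.73, 8.50, 8.52, 8.09 and 8.42 in SDS mice. The groups did not overlap, and the log2 fold change was -1.0 ± 0.12 (adjusted p = 0.000178). Manf, a small secreted factor that binds Hspa5, had 8.98, 8.78, 8.97 and 8.71 in fasted mice, against 10.14, 9.57, 9.61, 9.14 and 9.67 in SDS mice. SDS mouse K349 came closest to the fasted mice without reaching them, and the log2 fold change was -0.77 ± 0.16 (adjusted p = 0.00515).

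Hsp90b1 and Hyou1 passed the FDR but not the fold change minimum after fasting. Hsp90b1, the Hsp90 of the endoplasmic reticulum, averaged 10.68 ± 0.03 in fasted mice (SD, n = 4) and 11.21 ± 0.08 in SDS mice (SD, n = 5), and its log2 fold change was -0.53 ± 0.06 (adjusted p = 9.42e-05). Its second probe set was called, at -0.69 ± 0.07. Hyou1 averaged 7.83 ± 0.05 in fasted mice and 8.34 ± 0.16 in SDS mice, a log2 fold change of -0.51 ± 0.08 (adjusted p = 0.00106). The other probe sets of Hyou1 did not pass the FDR (-0.22 ± 0.08, adjusted p = 0.0889, and -0.09 ± 0.11, adjusted p = 0.677). Pdia4 (-0.23 ± 0.08, adjusted p = 0.0765) and Xbp1 (-0.05 ± 0.08, adjusted p = 0.749) did not pass, and their groups overlapped.

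Read as a group, 6 of the 10 genes were called lower after fasting, where 2.68% of all probe sets were. The median log2 fold change of the 10 was -0.68, against 0.00 over all probe sets. For 8 of the 10 genes every fasted mouse lay below every SDS mouse, a pattern that 8.58% of all probe sets had. Markers of leukocytes moved too: 8 of 14 were lower after fasting, and their mean level was 5.64 to 5.82 in fasted mice and 6.12 to 6.51 in SDS mice. The brightest of them was Cd74 and the dimmest Itgam, and RMA values have no zero. Markers of the distal convoluted tubule had a mean of 9.0 to 9.09 in fasted mice and 9.31 to 9.59 in SDS mice, with 2 of 4 called lower (Pvalb, -1.01, and Calb1, -0.94). Those of fibroblasts and matrix were at 5.85 to 6.0 in fasted mice and 6.26 to 6.46 in SDS mice, with 1 of 6 lower (Col3a1, -2.23). Of 8 proximal tubule markers Miox (-0.97) and Slc5a2 (-0.89) were lower and Slc22a8 (0.77) was higher. A single marker of collecting duct (Avpr2, -0.66) was lower, and so was Cela1 (-1.33) of the exocrine pancreas list. Cela1 averaged 8.87 in fasted and 10.2 in SDS mice, while the mean of the 7 genes of that list was 3.97 and 4.15. Higher were 1 marker of podocytes (Wt1, 0.66) and 1 of adipocytes (Adig, 1.16). Of hepatocyte markers Ttr was lower (-1.04) and Serpina1a higher (1.38). The part of these cell types in the result was not tested. Of 7 markers of plasma and B cells, which are rich in this machinery, 0 were called, and their mean level was 3.88 to 4.10 in fasted mice and 4.01 to 4.13 in SDS mice. That mean lies below the medians of these arrays (4.15 to 4.21), where a loss may not be seen, and the part of these cells was not tested either.

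The same question was asked of 2-week 30%DR. Hspa5 had 9.62, 9.90, 9.90, 9.91 and 9.81 in 30%DR mice, against 10.51, 10.60 and 10.77 in SDS mice. The groups did not overlap, and the level was 57.5% of that in SDS mice (log2 fold change -0.80 ± 0.17, adjusted p = 0.0112). Pdia6 had 8.72, 8.84, 8.79, 8.92 and 8.75 in 30%DR mice, against 9.28, 9.69 and 9.66 in SDS mice. Its log2 fold change was -0.74 ± 0.13, with the lowest adjusted p of the 10 (0.00369). The second probe set of Pdia6 was not called (-0.65 ± 0.18, adjusted p = 0.0623).

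Manf and Creld2 had the largest changes after 30%DR. Manf had 8.18, 7.71, 8.22, 8.15 and 8.01 in 30%DR mice, against 8.90, 9.08 and 9.62 in SDS mice. That is 45.2% of the SDS level (log2 fold change -1.15 ± 0.27, adjusted p = 0.0259). Creld2 had 7.17, 7.41, 6.98, 7.55 and 7.71 in 30%DR mice, against 8.18, 8.46 and 8.78 in SDS mice. The groups did not overlap, although both spread widely, and the log2 fold change was -1.11 ± 0.25 (adjusted p = 0.0198).

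Dnajb11 had 8.49, 8.68, 8.37, 8.73 and 8.63 in 30%DR mice, against 9.01, 9.13 and 9.37 in SDS mice, with a log2 fold change of -0.59 ± 0.14 (adjusted p = 0.0271). Sdf2l1 had 5.16, 4.61, 5.06, 4.58 and 4.79 in 30%DR mice, against 5.71, 5.48 and 6.05 in SDS mice. Its adjusted p of 0.0498 lay at the threshold (log2 fold change -0.91 ± 0.24). Hyou1 (-0.60 ± 0.20, adjusted p = 0.156) and Hsp90b1 (-0.30 ± 0.12, adjusted p = 0.272) did not pass, although no 30%DR mouse reached an SDS mouse for either gene. Pdia4 and Xbp1 had -0.22 ± 0.14 and -0.09 ± 0.14, and their groups overlapped.

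Of the 10 genes 6 were thus called lower after 30%DR, where 0.45% of all probe sets were, and their median log2 fold change was -0.67. For 8 of the 10 every 30%DR mouse lay below every SDS mouse, as in 4.07% of all probe sets. These calls rested on 3 controls. Without SDS mouse TS56 none of the 10 was called and without SDS mouse TS58 only Pdia6 was, although the median log2 fold changes stayed at -0.64 and -0.61, and without 30%DR mouse TS76 Hspa5, Pdia6 and Manf were called. The mean of 5 adipocyte markers, of which 1 was called lower, was 5.59 to 6.15 in 30%DR mice and 6.17 to 7.13 in SDS mice, and with that mean as a covariate 0 of the 10 genes were called, with a median of -0.51 and 7 at an unadjusted p under 0.05. The share of all probe sets at that p in the covariate fit is not given here. The brightest of the adipocyte markers was Fabp4 and the dimmest Lep. Markers of the distal convoluted tubule (8.7 to 9.28 in 30%DR mice and 9.4 to 9.45 in SDS mice, 1 of 4 lower, Pvalb at -0.83) and of dividing cells (3.13 to 3.59 in 30%DR mice and 3.72 to 4.07 in SDS mice, 1 of 6 lower, Cdk1 at -0.87) separated the groups as well, and their part was not tested. Against the 5 Control mice 7 of the 10 were called lower, the 6 above and Hyou1, with a median of -0.67. The share of all probe sets called in that comparison is not given here. Control mice differ from 30%DR mice in the diet itself and in adipocyte markers (4.86 to 5.69 in Control mice). They also differ in the measure of RNA quality described below (0.65 to 0.96 in Control and 1.04 to 2.22 in 30%DR mice). The part of each was not tested. The Control and SDS mice differ in diet. In a direct comparison of Control with SDS mice 0 of the 10 genes were called (0.0465% of all probe sets were). None of the 10 was at an unadjusted p under 0.05 (6.34% of all probe sets were), and the log2 fold changes were -0.11 to 0.36.

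**Figure D3:**
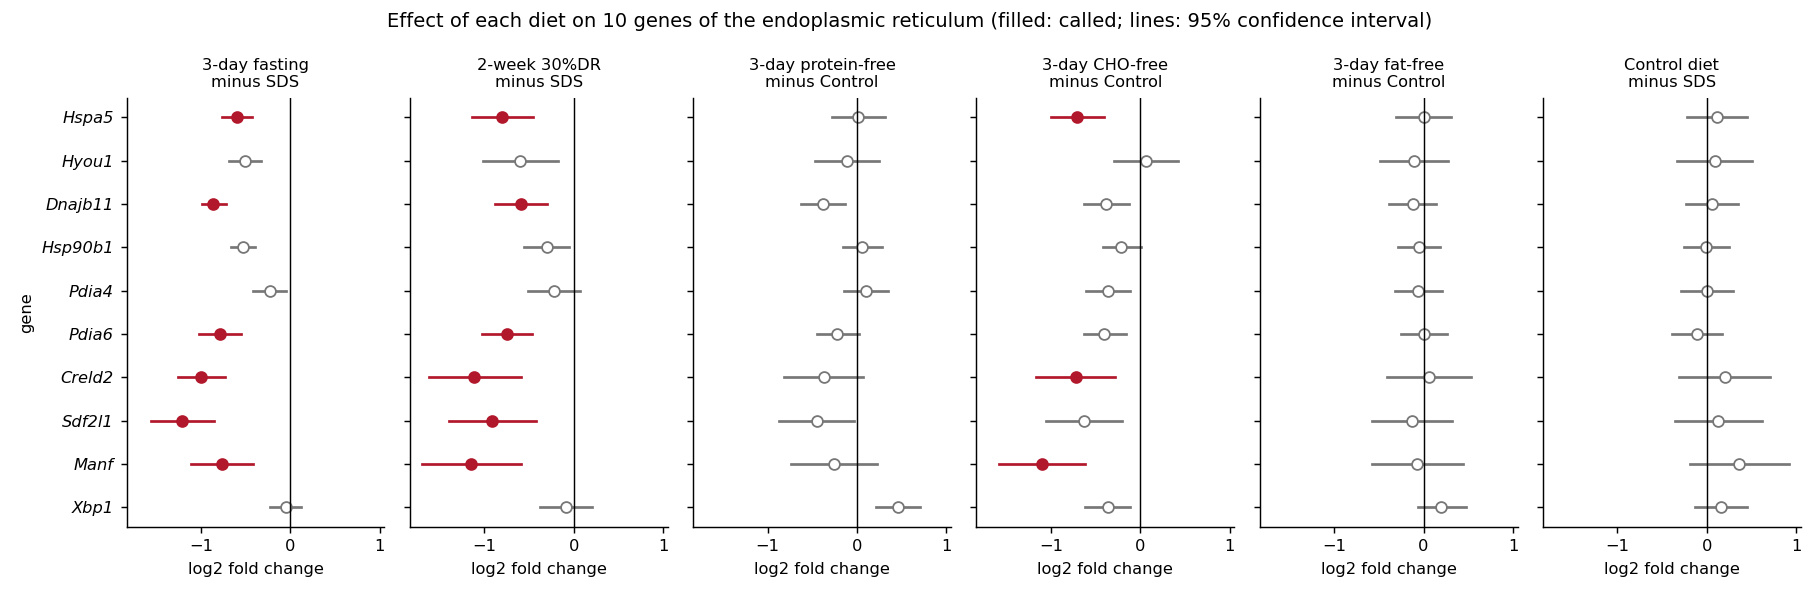
log2 fold change of the 10 genes in each comparison, with 95% confidence intervals; filled red points were called at FDR under 5% and 1.5-fold. The 6 genes called after fasting and after 30%DR are the same, 3 of them were called on the CHO-free diet, and no gene was called on the protein-free or fat-free diet or between the control diets.

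The 3 diets that lack 1 macronutrient share their 5 Control mice, so their effects are not independent of each other. On the CHO-free diet Hspa5 had 10.09, 10.32, 10.04, 9.72 and 10.01, against 10.19, 10.53, 11.10, 11.08 and 10.80 in Control mice. Control mouse TS26 lay below CHO-free mouse TS32, so that the groups overlapped, and the log2 fold change was -0.71 ± 0.14 (adjusted p = 0.00232). Manf had 8.69, 8.99, 8.37, 7.95 and 8.30 in CHO-free mice, against 8.59, 9.29, 10.09, 10.19 and 9.65 in Control mice. The Control mice spread more widely than the CHO-free mice, and the log2 fold change was -1.10 ± 0.23 (adjusted p = 0.00327).

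Creld2 had 8.16, 8.05, 8.25, 7.67 and 7.65 in CHO-free mice, against 8.18, 8.42, 9.42, 9.03 and 8.33 in Control mice, with a log2 fold change of -0.72 ± 0.22 (adjusted p = 0.0313). Sdf2l1 was the only gene of the 10 whose CHO-free mice all lay below all Control mice (5.23, 5.40, 4.94, 5.24 and 5.45, against 5.61, 5.48, 6.63, 6.08 and 5.58), at -0.63 ± 0.21 and an adjusted p of 0.0503. A complete separation of this kind was seen in 2.37% of all probe sets. Dnajb11 (-0.38 ± 0.12, adjusted p = 0.0424) and Pdia6 (-0.40 ± 0.12, adjusted p = 0.0285) passed the FDR but not the fold change minimum, and the second probe set of Pdia6 did not pass the FDR (-0.08 ± 0.15, adjusted p = 0.82). Pdia4 was at -0.36 ± 0.12 (adjusted p = 0.0565), Hsp90b1 at -0.21 ± 0.11 (adjusted p = 0.24) and Hyou1 at 0.06 ± 0.17 (adjusted p = 0.872), each with overlapping groups.

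The 4 probe sets of Xbp1 differed on the CHO-free diet. The brightest had -0.36 ± 0.12 (adjusted p = 0.0584), 1 other was called at -0.85 ± 0.21 (adjusted p = 0.0115), and the remaining ones had -0.54 ± 0.15 and 0.10 ± 0.13. The spliced and unspliced forms of the transcript were not told apart here.

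Of the 10 genes 3 were called lower on the CHO-free diet, where 2.25% of all probe sets were, and the median log2 fold change was -0.39. RNA quality moved with this result. Gapdh has control probe sets near its 3' and its 5' end, and the gap between them on the log2 scale, which grows as RNA is degraded, was 0.98 to 2.45 in CHO-free mice and 0.65 to 0.96 in Control mice. With it as a covariate 0 of the 10 genes were called, with a median of -0.35 and 6 at an unadjusted p under 0.05. The share of all probe sets at that p in the covariate fit is not given here. Without CHO-free mice TS34 and TS35, which had the widest gap (2.45 each, a setting chosen after seeing the data), 1 gene, Hspa5, was called. The mean of the 10 genes ran from 8.55 to 8.79 in CHO-free mice and from 8.85 to 9.55 in Control mice. The part of RNA quality was not tested. Leukocyte markers also moved, with 4 of 14 lower and a mean level of 5.28 to 5.52 in CHO-free mice and 5.62 to 6.2 in Control mice, from Cd74 as the brightest to Itgam as the dimmest. Markers of intercalated cells were at 8.34 to 8.57 in CHO-free mice and 7.68 to 8.3 in Control mice, with 2 of 5 higher (Slc4a1, 1.09, and Aqp6, 0.93), and those of collecting duct were at 7.76 to 7.98 in CHO-free mice and 7.24 to 7.69 in Control mice, with 0 of 6 called. Pvalb (-0.73), Cldn16 of the thick ascending limb (-0.62) and Cela1 (-1.36) were lower, and Cps1, a hepatocyte marker, was higher (1.36). The part of these cell types was not tested.

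**Figure D4:**
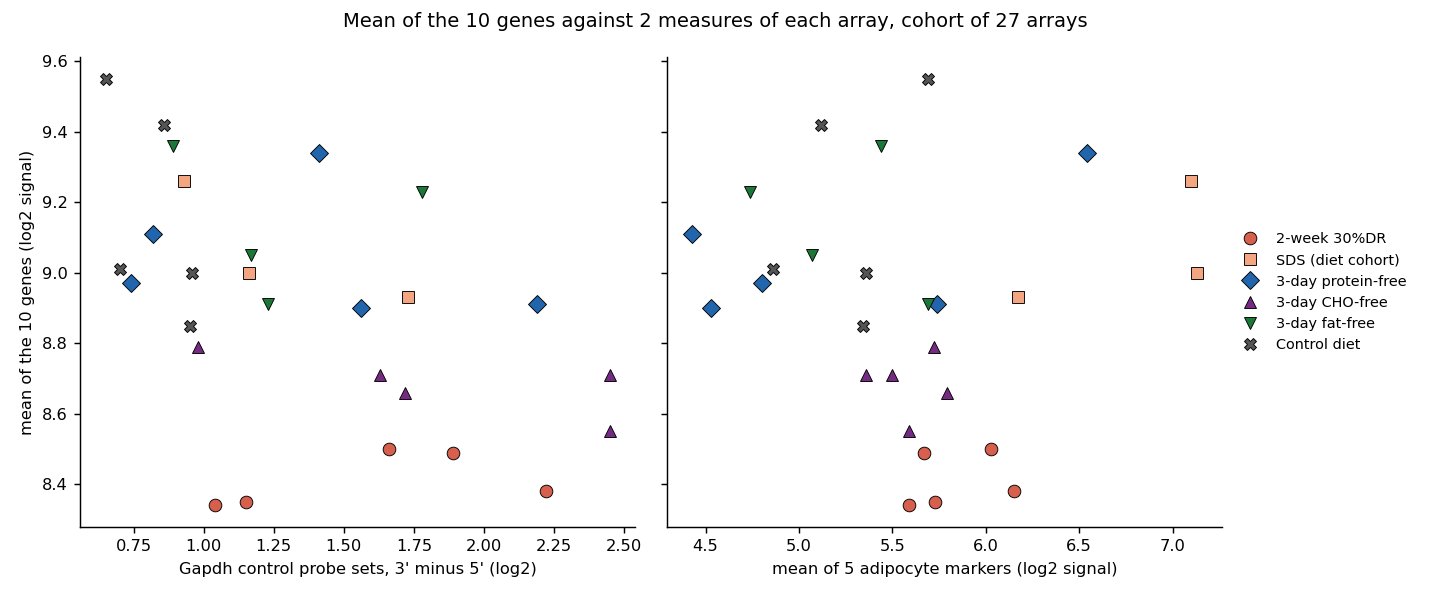
Mean log2 signal of the 10 genes in each mouse of the cohort of 27 arrays against the gap between the 3' and 5' control probe sets of Gapdh on the log2 scale (left) and the mean of 5 adipocyte markers (right). The 30%DR mice are lowest in the mean of the 10 genes (8.34 to 8.50) at Gapdh gaps of 1.04 to 2.22, while the CHO-free mice (8.55 to 8.79) include the widest Gapdh gaps (2.45).

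On the protein-free diet 0 of the 10 genes were called (0.288% of all probe sets were called lower and 0.45% higher). At an unadjusted p under 0.05 were 3 of the 10 and 12.9% of all probe sets. Xbp1, the transcription factor that IRE1 activates, had 11.63, 11.71, 11.78, 11.26 and 11.30 in protein-free mice, against 10.83, 10.90, 11.12, 11.32 and 11.22 in Control mice. Its difference of 0.46 ± 0.12 (adjusted p = 0.0515) passed neither the FDR nor the fold change minimum, and the groups overlapped by mice TS52 and TS54 against Control mouse TS29. The other 3 probe sets of Xbp1 had 0.47 (adjusted p = 0.05), 0.37 (adjusted p = 0.248) and 0.15 (adjusted p = 0.852), and none was called. Dnajb11 (-0.38 ± 0.12, adjusted p = 0.118) and Sdf2l1 (-0.45 ± 0.21, adjusted p = 0.346) were the other genes at an unadjusted p under 0.05. Hspa5 differed by 0.01 ± 0.14, with a 95% confidence interval of -0.28 to 0.31.

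On the fat-free diet 0 of the 10 genes were called, and 0.0% of all probe sets were. At an unadjusted p under 0.05 were 0 of the 10 and 4.63% of all probe sets. The log2 fold changes ran from -0.13 to 0.20, with a median of -0.05. Hspa5 had 10.98, 10.92, 10.62 and 10.45 in fat-free mice, which lie inside the range of the Control mice, and the 95% confidence interval of its change was -0.31 to 0.31. For Sdf2l1 and Manf the intervals were wider, -0.58 to 0.32 and -0.58 to 0.44.

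A call in 1 diet and not in another is no difference between diets, so the 10 pairs of diets were tested as differences of effects, in 1 fit of all 36 arrays. Of the 100 tests of a gene in a pair of diets, 11 were called. Between fasting and 30%DR 0 of the 10 genes differed (2.24% of all probe sets did), and the differences were -0.30 to 0.38. At an unadjusted p under 0.05 were 0 of the 10 genes and 11.9% of all probe sets. Between fasting and the CHO-free diet 0 of the 10 were called as well (2.84% of all probe sets were). There 4 of the 10 and 16.1% of all probe sets were at an unadjusted p under 0.05.

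Fasting and the fat-free diet differed for 4 genes (1.65% of all probe sets were lower in this difference): Dnajb11 by -0.73 ± 0.16 (adjusted p = 0.00511), Pdia6 by -0.79 ± 0.17 (adjusted p = 0.0041), Creld2 by -1.06 ± 0.30 (adjusted p = 0.0348) and Sdf2l1 by -1.08 ± 0.30 (adjusted p = 0.0305). From the protein-free diet fasting differed for Hsp90b1 alone, by -0.59 ± 0.14 (adjusted p = 0.0103, 1.25% of all probe sets lower). The second probe set of Hsp90b1 was called in both differences (-0.98 from the protein-free and -0.94 from the fat-free diet). From the protein-free diet all 10 genes had differences below 0, 7 of them at an unadjusted p under 0.05 (12.8% of all probe sets were).

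The CHO-free and fat-free diets, which share their controls, differed for 3 genes (1.02% of all probe sets lower): Hspa5 by -0.71 ± 0.14 (adjusted p = 0.00215), Manf by -1.03 ± 0.24 (adjusted p = 0.00828) and Creld2 by -0.78 ± 0.21 (adjusted p = 0.0275). Among the other probe sets 2 of Xbp1 were called in this difference (-0.97 and -0.79). Protein-free and CHO-free mice differed for Xbp1, by 0.82 ± 0.11 (adjusted p = 6.92e-06), Hspa5, by 0.72 ± 0.13 (adjusted p = 0.000308), and Manf, by 0.85 ± 0.22 (adjusted p = 0.0117), all higher on the protein-free diet, as 1.57% of all probe sets were. Of the other probe sets of Xbp1 2 were called in this difference (1.0 and 0.92) and 1 was not (0.37, adjusted p = 0.0384). Levels of Xbp1 ran from 11.26 to 11.78 in protein-free mice and from 10.40 to 10.98 in CHO-free mice. The share of all probe sets without overlap between these groups is not given here. Markers of dividing cells were at 3.03 to 3.22 in protein-free and 3.86 to 4.05 in CHO-free mice, and their part was not tested. Between 30%DR and the other 3 diets of its cohort 0 of 10 genes were called in each pair, where 0.0665% (protein-free), 0.959% (CHO-free) and 0.162% (fat-free) of all probe sets were. In these pairs 6, 1 and 6 of the 10 genes were at an unadjusted p under 0.05. Of all probe sets 7.43%, 13.7% and 9.47% were, respectively. Between the protein-free and fat-free diets 0 of 10 were called (0.337% of all probe sets were). An unadjusted p under 0.05 was seen for 3 of the 10 and for 9.57% of all probe sets.

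By the probe set of highest mean signal, the 10 genes did not vary as 1 block within the groups. Over the deviations of 36 arrays from the means of their 8 groups, the 45 pairs of genes had a median Pearson correlation of 0.44, and 41 were above 0. Dnajb11 and Creld2 were closest (0.76) and Dnajb11 and Hsp90b1 the least alike (-0.31). Creld2 followed the mean of the other 9 genes most closely (0.87), while Hsp90b1 (0.01) and Xbp1 (0.40) followed it least. These are descriptions over arrays that share their normalization and differ in RNA quality. Correlations of the other probe sets, such as the second of Hsp90b1, were not computed and may differ.

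The other genes of the pathway were taken from lists of the secretory pathway. Of 146 genes of these lists other than the 10, 7 were higher and 5 lower after fasting. After 30%DR 0 were higher and 3 lower. The protein-free diet had 0 higher and 1 lower, the CHO-free diet 1 higher and 7 lower, and the fat-free diet 0 of either. Of all probe sets 2.63% were higher and 2.68% lower after fasting. Lower were 0.45% after 30%DR, 0.288% on the protein-free and 2.25% on the CHO-free diet. The median log2 fold changes of the 146 genes were -0.08 after fasting, -0.13 after 30%DR, -0.03 on the protein-free, -0.05 on the CHO-free and 0.00 on the fat-free diet, nearer to 0 than those of the 10 genes after fasting, 30%DR and the CHO-free diet.

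Of the sensors, Ern1 had 0.04 ± 0.07, Atf6 -0.03 ± 0.06 and Eif2ak3 -0.13 ± 0.08 after fasting, and 0.13 ± 0.11, -0.15 ± 0.11 and -0.29 ± 0.12 after 30%DR, and none was called in any diet. Among 11 transcripts of sensors and transcription factors other than Xbp1, only Ddit3 (CHOP), a factor of the PERK branch, was called. It was higher after fasting (0.63 ± 0.11, adjusted p = 0.00179) and lower after 30%DR (-0.87 ± 0.20, adjusted p = 0.0215).

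Targets of ATF4, the factor that PERK and other kinases of the integrated stress response bring about, were counted next. Of 12, 6 were higher, 0 lower and 6 not called after fasting, where 2.63% of all probe sets were higher, and the median of the 12 was 0.50. Asparagine synthetase, Asns, averaged 7.04 ± 0.18 in fasted mice (SD, n = 4) and 5.82 ± 0.26 in SDS mice (SD, n = 5), a log2 fold change of 1.21 ± 0.13 (adjusted p = 7.07e-05). Chac1, a glutathione-degrading enzyme, rose by 1.07 ± 0.15 and the pseudokinase Trib3 by 0.80 ± 0.14. After 30%DR 1 of the 12 was called, Atf3 at -1.05 ± 0.19, and it was called at -1.0 ± 0.19 in Control against SDS mice as well. On the CHO-free diet Nupr1 was higher (0.86 ± 0.25) and on the protein-free diet Ddit4 was lower (-0.94 ± 0.24).

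Among the folding genes next to the 10, calls were few. Of 9 others in the HSP70 and HSP40 cycle, 0 were called after fasting or 30%DR and Cnpy2 was lower on the CHO-free diet (-0.64 ± 0.18). Of 16 others in disulfide exchange and oxidation, only Prdx4 was called, on the CHO-free diet (-0.63 ± 0.15), and of 10 in the lectin chaperone cycle 0 were called in any diet. Derl2, which helps to export misfolded proteins for degradation, fell after fasting (-0.80 ± 0.06, adjusted p = 7.82e-06), as did the translocon subunit Sec61b (-0.62 ± 0.07), the oligosaccharyltransferase subunit Ostc (-0.72 ± 0.08), the KDEL receptor Kdelr3 (-0.66 ± 0.08) and the calcium-binding protein Rcn1 (-0.70 ± 0.09). Ostc also fell on the CHO-free diet (-1.27 ± 0.28), with Tusc3 of the same complex (-1.15 ± 0.26). After 30%DR the calcium pump of the endoplasmic reticulum, Atp2a2, fell (-0.62 ± 0.11, adjusted p = 0.00225).

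**Figure D5:**
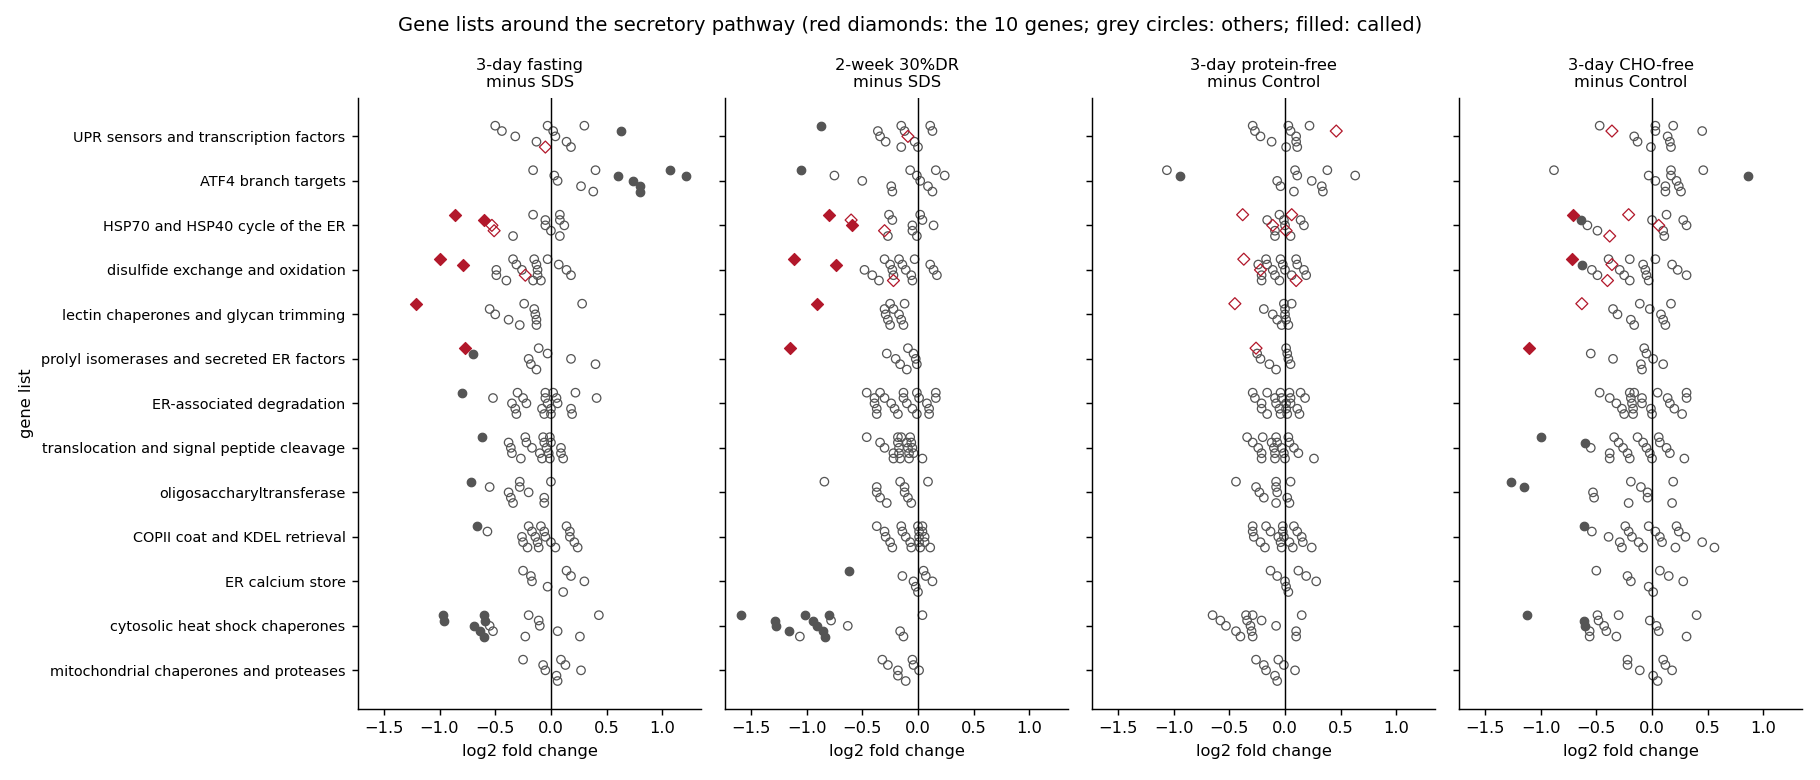
log2 fold change of each gene of 13 lists in 4 comparisons; red diamonds are the 10 genes, grey circles the other genes of each list, and filled symbols were called. After fasting the filled circles of the ATF4 list lie above 0 and those of the cytosolic heat shock chaperones below 0, while most other circles are open.

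The genes whose profile over the 36 arrays was most like the mean of the 10, among 10367 genes of above-median signal and after centring on each cohort, were Chordc1 (r = 0.90), Dnaja1 and Ahsa1 (0.87 each), Ahsa2 and Ppid (0.86 each), 2810004N23Rik, Stip1 and Kti12 (0.85 each), and B4galt5 and Hsph1 (0.84 each). The most opposite were Uvssa (-0.92), Ccdc62 (-0.89) and Hnrnpdl (-0.88). Of these 10 genes 5 are in the list of cytosolic heat shock chaperones below (Chordc1, Dnaja1, Ahsa1, Stip1 and Hsph1). Chordc1, a co-chaperone of Hsp90, fell after fasting (-0.97, adjusted p = 3.1e-05), after 30%DR (-1.01, adjusted p = 0.00164) and on the CHO-free diet (-0.60, adjusted p = 0.00881). It had -0.30 (adjusted p = 0.382) on the protein-free and -0.03 on the fat-free diet. Chordc1 was picked for its likeness over these same diets, so a fall in the same diets follows from the choice. Over deviations from the group means its correlation was 0.63, and the 10 most alike genes ran from 0.45 (B4galt5) to 0.75 (Ahsa1).

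Of 16 cytosolic heat shock chaperones 7 were lower after fasting (2.68% of all probe sets were), 10 after 30%DR (0.45%) and 3 on the CHO-free diet (2.25%). On the protein-free and fat-free diets 0 were called, where 0.288% of all probe sets were lower and 0.0% were called, respectively. The median log2 fold changes of the 16 were -0.53, -0.88 and -0.42 in the first 3 of these diets and -0.31 and -0.03 on the protein-free and fat-free diets. Hspa1b, the inducible cytosolic Hsp70, had the largest change of them after 30%DR (-1.59 ± 0.39, adjusted p = 0.0314). In Control against SDS mice, both with free access, all 16 lay below 0 too, from -1.68 to -0.01 with a median of -0.16. Of these 0 were called (0.0465% of all probe sets were). The SDS mice, the controls of 30%DR, were thus the higher group in that comparison as well, and its part in the 30%DR result was not tested. In mitochondria 0 of 8 chaperones and proteases were called in any diet.

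Genes with an exact ERSE were then counted over the whole array. Of the 37 genes with an exact ERSE in the window 20 were measured, 4 of them members of the 10. Of the 16 others, 1 was lower (Spats2l, -1.43) and 1 higher (Acacb, 0.95) after fasting, 0 were called after 30%DR, and on the CHO-free diet the same 2 were called, at -0.79 and 0.67. Their median log2 fold change was -0.02 after fasting, -0.18 after 30%DR and -0.02 on the CHO-free diet. Of all probe sets 2.68% were lower and 2.63% higher after fasting, and 2.25% were lower on the CHO-free diet.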

How the data were processed

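Total kidney RNA was hybridized to Affymetrix HT MG-430 PM arrays, 1 per mouse. The authors deposited log2 signals that they had made with RMA (version not given in the sources used here), separately for the fasting cohort (9 arrays, medians 4.15 to 4.21) and the other 27 arrays (medians 3.62 to 3.76), so levels were not compared across cohorts. No pair of arrays was identical. Group means were fitted with limma 3.58.1 in R 4.3.3 (eBayes), for each cohort and, for differences between diets, for all 36 arrays, and p-values were adjusted over 45141 probe sets by Benjamini-Hochberg. The fit was tested on simulated data. Of the probe sets 28898 have 1 gene symbol in the platform annotation, 551 several and 15692 none. Promoters are RefSeq (GRCm38.p6). The genes and lists were chosen with earlier results of these data known. Genes outside the 10 were named by a rule: up to 3 called genes of largest change per list and comparison, and the 10 most alike and 3 most opposite profiles. The sensors, Kap, Umod and the ERSE genes were named for their role or small number, after their values were seen. Alternatives covered the variance prior, normalization, centring, filter, fold minimum, probe set choice, groups fitted, covariates, controls and single arrays. Figures were drawn with matplotlib 3.10.9.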

Additional observations from a re-analysis of the deposited data

Results flagged for a closer look

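Of 70 sets of values (a gene in a group of 4 or 5 mice), 4 held a mouse far from the others, where chance gives about 1 in 20. Pdia4 was 8.61 in SDS mouse K348, against 8.30 to 8.35 in the other 4 mice, and 8.05 in CHO-free mouse TS31, against 7.78 to 7.83. Pdia6 was 9.59 in SDS mouse K349, against 10.06 to 10.17. Manf was 9.76 in fat-free mouse TS38, against 9.38 to 9.42.

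The 11 differences between diets that passed the test stand here with their 95% confidence intervals. Fasting minus protein-free gave -0.59 for Hsp90b1 (-0.88 to -0.31). Fasting minus fat-free gave -0.73 for Dnajb11 (-1.07 to -0.40), -0.79 for Pdia6 (-1.14 to -0.44), -1.06 for Creld2 (-1.67 to -0.45) and -1.08 for Sdf2l1 (-1.69 to -0.47). Protein-free minus CHO-free gave 0.72 for Hspa5 (0.45 to 0.98), 0.85 for Manf (0.39 to 1.3) and 0.82 for Xbp1 (0.59 to 1.05). CHO-free minus fat-free gave -0.71 for Hspa5 (-0.99 to -0.42), -0.78 for Creld2 (-1.21 to -0.35) and -1.03 for Manf (-1.51 to -0.55).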

How the results depend on the processing

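No called change of a member reversed under any alternative run. Fasting kept 5 to 6 called genes in leave-one-out fits and in the other settings, except 7 with any probe set and 8 without the fold minimum. Leaving out 1 mouse gave 0 to 5 genes for 30%DR, with 0 without SDS mouse TS56, 1 without TS58 and 3 without 30%DR mouse TS76, and 2 to 4 for the CHO-free diet. The adipocyte covariate left 0 for 30%DR. The CHO-free count was 5 without the fold minimum, 0 with the Gapdh covariate and 1 without mice TS34 and TS35. The cause of these losses was not tested. On the protein-free and fat-free diets and between the control diets the count was 0 in every setting. The count of differences between diets, 11, was 8 to 15 in leave-one-out fits and 9 to 14 in the other settings. After fasting Dnajb11, Creld2, Sdf2l1 and Manf kept their calls in all 18 alternatives, Pdia6 in 17 and Hspa5 in 13. After 30%DR Pdia6 kept it in 17 of 19, Hspa5 in 16, Creld2 in 15, Manf in 14, Dnajb11 in 12 and Sdf2l1 in 10. On the CHO-free diet Hspa5 kept it in 19 of 20, Manf in 18 and Creld2 in 13. Of the differences between diets, 4 were called in every alternative (Dnajb11 for fasting minus fat-free, Hspa5 in both of its differences and Xbp1), and the least stable was that of Creld2 for fasting minus fat-free, called in 34 of 45. No paired analysis was made, because each array is a different mouse on 1 diet.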
